A study of Mus musculus with 24 samples.

Results

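The EGF receptor, the related receptors Erbb2 and Erbb3, and the ligands Hbegf, Areg, Ereg, Tgfa and Btc were followed in mouse lung after inhalation of ozone. They were the probe sets of an Affymetrix Mouse 430A 2.0 array whose platform gene symbol was one of these 8 genes. The rule gave 16 of the 22690 probe sets on the array, and these covered 7 of the 8 genes. They comprised 5 probe sets for Egfr, 3 for Tgfa, 2 each for Hbegf, Btc and Erbb3, and 1 each for Ereg and Erbb2. Areg, the ligand amphiregulin, has no probe set under its symbol in the annotation used and is not analysed here.

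The samples were left lung lobes of 24 male mice, 1 array per mouse and 3 mice per group. HeJ mice (C3H/HeJ) carry a dominant negative Tlr4, the receptor for bacterial lipopolysaccharide, and OuJ mice (C3H/HeOuJ) carry a sufficient one. Mice of each strain breathed air, or breathed ozone for 6, 24 or 48 h, and the design asks how lung transcripts respond to ozone in the 2 strains. Each strain has 1 air group, whose sample titles give no duration, so no air group is matched to an ozone time. The labels give neither the ozone concentration nor the age of the mice, and they name each mouse as a biological replicate. The mice are compared as the labels name them, and other genetic differences between the strains were not measured.

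Ligands of the EGF family are made as membrane-bound precursors and are released by metalloproteinases such as Adam17 and Adam10. Released ligand binds EGFR, which pairs with itself or with ERBB2 or ERBB3 and signals through the RAS and ERK, PI3K and STAT pathways. ERBB2 has no known soluble ligand, and ERBB3, which binds neuregulins, has a weak kinase and signals mainly with a partner. In lung this system is known for its part in repair of the airway and alveolar epithelium after injury.

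Array medians lay between 200.1 and 229 signal units, and the Pearson r of log2 values between arrays within a group was 0.965 to 0.979. Alveolar type 1, alveolar type 2 and club cell marker lists were bright in every array, with summed signals of at least 53537, 89595 and 68623. The labels also hold a sample code for each mouse: the air and 6 h mice of both strains belong to code series 3, the OuJ 24 and 48 h mice to series 10, and the HeJ 24 and 48 h mice to series 13. Ozone for 24 or 48 h against air therefore cannot be told apart from the code series, and at 24 and 48 h neither can the strains. The comparisons of 6 h with air, of the strains in air or at 6 h, and of 48 h with 24 h each lie within 1 series. The 3 air arrays of a strain serve all of its comparisons with air. Of the 16 member probe sets, 10 exceeded the median of all signals, 218 units, in at least 3 arrays, and the deposited values used here carry no detection calls. Differences below are of log2(signal + 16). Passing means a limma p under 0.05 after Benjamini-Hochberg adjustment over all 22626 probe sets that are not controls. Where groups of 3 arrays are said not to overlap, this is description only. An exact two-sided test of 3 against 3 arrays cannot give a p under 0.1. The share of all probe sets without overlap was not counted.

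The transcript of epiregulin (Ereg) was higher in lungs exposed to ozone for 24 or 48 h than in air in both strains, in comparisons that cannot be told apart from the code series. Its single probe set was the 1 of the 16 that passed in each of these comparisons. Of all probe sets, 3.03% passed for HeJ at 24 h (1.57% higher), 5.04% for HeJ at 48 h (2.68% higher), 2.25% for OuJ at 24 h (1.13% higher) and 3.3% for OuJ at 48 h (1.78% higher). Epiregulin activates EGFR and ERBB4 and is known as a growth factor for epithelium that is also made by macrophages.

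In HeJ lungs the Ereg signal was 17.2, 9.7 and 25.2 in air, 30.1, 20.4 and 58.2 at 6 h, 91.6, 97.5 and 143 at 24 h, and 206, 159.1 and 174.4 at 48 h. In OuJ lungs it was 57.3, 22.6 and 13 in air, 43, 38.7 and 52.7 at 6 h, 105.5, 78.5 and 110.5 at 24 h, and 134, 125.3 and 158.3 at 48 h. In both strains every 24 and 48 h array lay above every air array of the same strain, every 48 h array lay above every 24 h array, and the 6 h arrays overlapped air. No Ereg value reached the median of all signals, so the air values lie in the dim range of the array.

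Against air, Ereg differed by 1.93 ± 0.30 at 24 h in HeJ lungs (log2, SE; adjusted p = 0.00134) and by 2.57 ± 0.30 at 48 h (adjusted p = 3.09e-05). In OuJ lungs the differences were 1.38 ± 0.30 at 24 h (adjusted p = 0.0145) and 1.83 ± 0.30 at 48 h (adjusted p = 0.0013). With both strains averaged they were 1.66 ± 0.22 at 24 h (adjusted p = 4e-05) and 2.20 ± 0.22 at 48 h (adjusted p = 8.08e-07), where 7.09% and 9.73% of all probe sets passed, 3.29% and 4.66% as higher. These differences hold the pseudocount of 16, which weighs heavily at such low signals. The air signals were not shown to be above background, so no linear fold is given, and the HeJ log2 difference at 48 h ran from 1.58 with a pseudocount of 64 to 3.38 with a pseudocount of 1, passing with both. The OuJ difference ran from 1.12 to 2.38 in the same way. The OuJ call at 24 h did not hold without OuJ air replicate 2 (adjusted p = 0.0765), OuJ air replicate 3 (0.0946), OuJ 24 h replicate 1 (0.0516) or OuJ 24 h replicate 3 (0.0809). The HeJ call at 24 h did not hold without the 4 arrays whose sample codes carry a suffix, which leaves 1 HeJ array at 24 h (difference 1.62, adjusted p = 0.203).

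At 6 h the Ereg difference from air was 0.61 in HeJ lungs (adjusted p = 0.729) and 0.48 in OuJ lungs (adjusted p = 0.782). Averaged over the strains it was 0.54 ± 0.22, with a 95% confidence interval of 0.10 to 0.99 and an adjusted p of 0.402. None of the 16 member probe sets passed at 6 h in limma, in HeJ lungs (0% of all probe sets passed), in OuJ lungs (0.0354%) or averaged (0.296%, 0.23% as higher). At an unadjusted p under 0.05 the averaged comparison gave 1 member, Ereg, and the strains taken singly gave 0. Between the ozone times, the 48 h minus 24 h difference was 0.64 ± 0.30 in HeJ lungs (adjusted p = 0.301) and 0.45 ± 0.30 in OuJ lungs (adjusted p = 0.856), although the groups did not overlap in either strain. No member passed in these comparisons, where 2.36% and 0.0928% of all probe sets did, and 1 (Ereg in HeJ) and 0 had an unadjusted p under 0.05.

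The response of Ereg was not shown to differ between the strains. The HeJ response minus the OuJ response was 0.13 at 6 h (95% confidence interval −0.77 to 1.03), 0.55 at 24 h (−0.35 to 1.44) and 0.74 at 48 h (−0.15 to 1.64), with adjusted p-values of 0.994, 0.865 and 0.821. These intervals include no difference and also a HeJ response larger by more than 1 log2 unit. At 48 h the lowest of the HeJ arrays (159.1 to 206) lay just above the highest of the OuJ arrays (125.3 to 158.3). The difference was 0.33 with an interval of −0.30 to 0.97 and an adjusted p of 0.61. Strain cannot be told apart from the code series at that time. In air the HeJ minus OuJ difference of Ereg was −0.41 (adjusted p = 0.67), and the groups overlapped. Over the 16 members, 0 passed in the tests of a different response in limma, against 0.00442%, 0% and 0% of all probe sets at 6, 24 and 48 h, and 0, 0 and 1 of the members had an unadjusted p under 0.05. That 1 was the fourth of the Egfr probe sets by brightness, at 48 h (difference −0.69, adjusted p = 0.708).

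**Figure D1:**
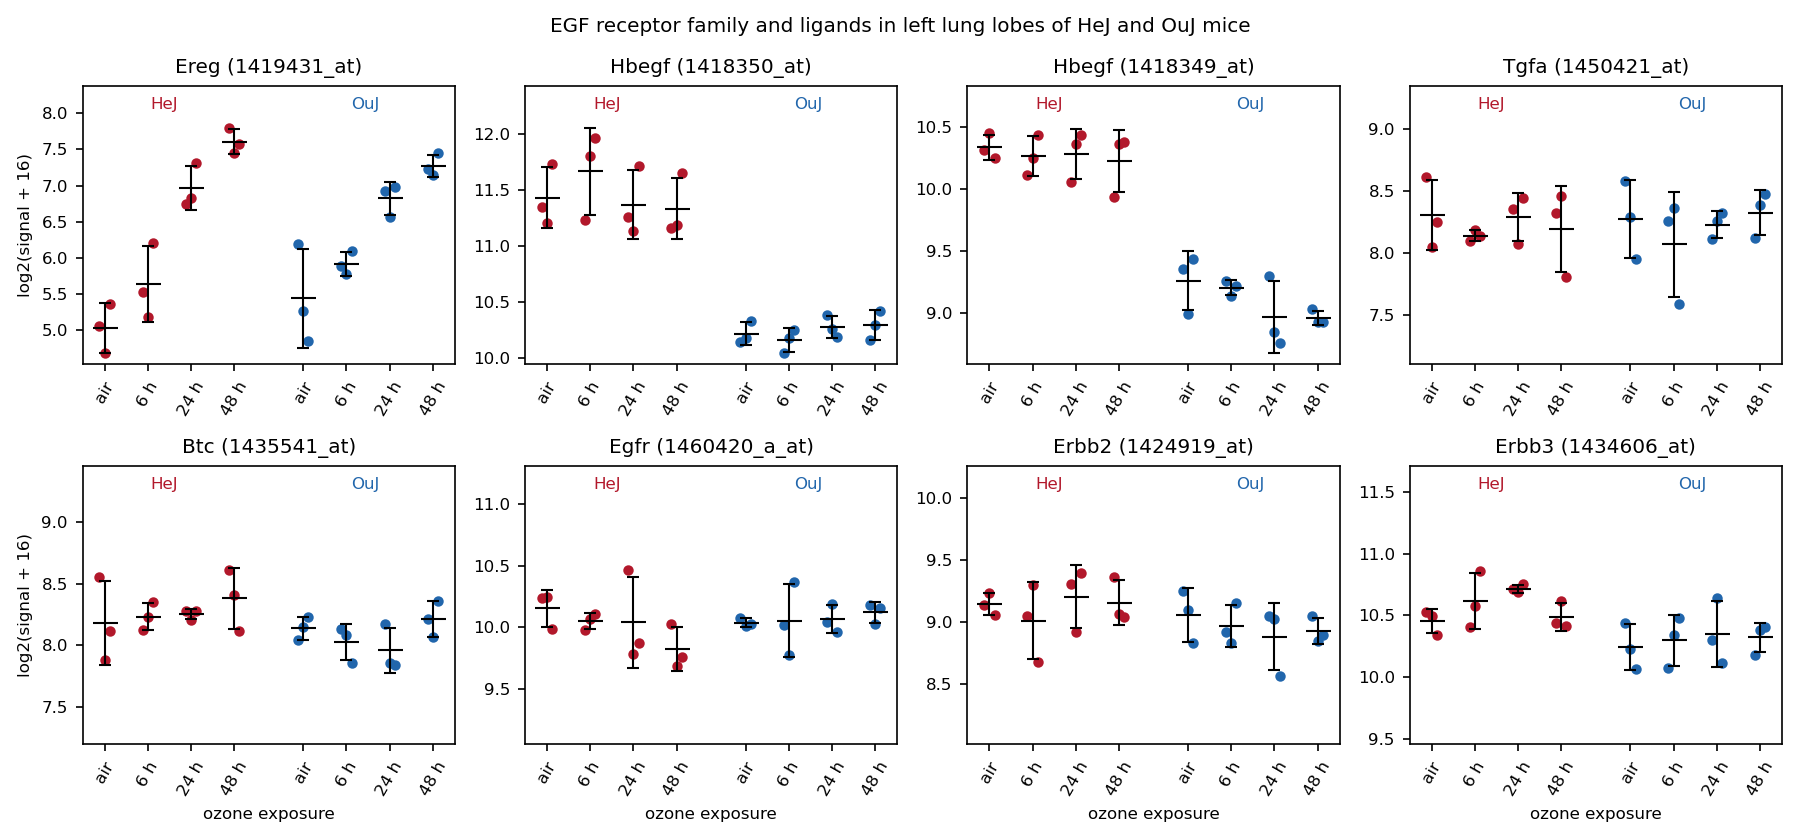
Log2(signal + 16) of the brightest probe set of each measured member, and of both Hbegf probe sets, in each array by exposure, HeJ in red and OuJ in blue. Points are single mice, bars give the mean and SD of 3 mice, and each panel has its own y range of at least 2 log2 units. Ereg lies higher at 24 and 48 h in both strains, and the HeJ arrays lie above all OuJ arrays in both Hbegf panels.

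Lung lobes are mixed tissue, so fewer cells of a type and less RNA per cell cannot be told apart. Several marker lists moved at the times when Ereg was high. Of all probe sets, 7.09% passed at 24 h and 9.73% at 48 h, averaged over the strains. Each marker was read through its brightest probe set, while these shares cover all probe sets. At 24 h, averaged over strains, 3 of 7 T cell and innate lymphoid markers, 2 of 4 neutrophil markers (S100a8 and S100a9), 1 of 4 endothelial markers (Kdr) and 1 of 5 alveolar type 1 markers (Aqp5, −0.38) were lower than in air. At that time 2 of 6 macrophage markers (Marco and Chil3), 1 of 4 smooth muscle markers (Acta2), 1 of 5 fibroblast markers (Pdgfra) and 1 of 4 club cell markers (Aldh1a7) were higher, and none of the alveolar type 2, basal, ciliated or mast cell markers passed. At 48 h, averaged over strains, 4 of 4 endothelial markers were lower than in air, and their summed signal ranged from 11744 to 13624 at 48 h against 15702 to 18479 in air. The T cell and innate lymphoid list had 4 of 7 markers lower (sums 618 to 977 at 48 h, 1118 to 1698 in air), and the neutrophil list had 2 of 4 lower, S100a8 and S100a9 (1013 to 2124 at 48 h, 1843 to 3247 in air). The macrophage list had 2 of 6 higher, Marco and Chil3 (7787 to 12515 at 48 h, 6243 to 7918 in air), and the smooth muscle list had 2 of 4 higher, Acta2 and Tagln (4812 to 8451 at 48 h, 4042 to 5988 in air). Of these 5 lists no marker was at 0, and the lowest single signal was 4.4, of Il2ra. The alveolar type 1 list had 0 of 5 changed at 48 h, the alveolar type 2 list 1 of 6 lower (Etv5, which is also in the list of transcription targets), the club cell list 1 of 4 higher (Aldh1a7), the ciliated list 1 of 3 higher, and the basal, fibroblast and mast cell lists none of 4, 5 and 7. Within HeJ and OuJ lungs singly, the T cell and innate lymphoid list had 0 and 3 lower at 24 h. The neutrophil list had 0 and 2 lower at that time. At 48 h the T cell and innate lymphoid list had 2 and 0 lower. The endothelial list then had 3 and 1 lower, and the neutrophil list 0 and 1. The macrophage list had 2 and 0 higher, and the smooth muscle list 1 and 0. No marker of these lists passed in a test of a different response at 24 or 48 h. The part of these marker shifts in the Ereg result was not tested.

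Heparin-binding EGF-like growth factor (Hbegf) was higher in HeJ than in OuJ lungs, and no difference from air was detectable with ozone. Its precursor is a membrane protein whose released form binds EGFR and ERBB4, and it is also the receptor for diphtheria toxin in human cells. On the brighter of its 2 probe sets the HeJ signals were 2589, 2350.3 and 3393 in air, against 1112, 1144 and 1270.1 in OuJ lungs. On the dimmer they were 1259, 1384 and 1200.5 in HeJ air lungs, against 638, 493 and 678 in OuJ air lungs. On each probe set every HeJ air array lay above every OuJ air array.

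In air the HeJ minus OuJ difference of Hbegf was 1.21 ± 0.17 on the brighter probe set (2.32-fold, adjusted p = 0.00153) and 1.08 ± 0.15 on the dimmer (2.11-fold, adjusted p = 0.000966). These were 2 of the 16 member probe sets, both higher in HeJ, where 0.522% of all probe sets passed and 0.194% were higher. The air arrays of both strains share 1 code series. Leaving out any 1 array kept both calls, with adjusted p-values of at most 0.0163.

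The strain difference of Hbegf was also present at each ozone time, in comparisons added after the data were seen. At 24 and 48 h strain cannot be told apart from the code series. At 6 h the signals on the brighter probe set were 2384, 3559 and 3976 in HeJ lungs, against 1037, 1141 and 1202 in OuJ lungs. At 24 h they were 2437, 2227 and 3340.3 in HeJ lungs, against 1319, 1210.4 and 1149 in OuJ lungs, and at 48 h 2273, 2319 and 3197 in HeJ lungs, against 1126, 1241 and 1355 in OuJ lungs. Over all exposures the 12 HeJ arrays ran from 2227 to 3976 and the 12 OuJ arrays from 1037 to 1355. On the dimmer probe set the 12 HeJ arrays ran from 966 to 1384 and the 12 OuJ arrays from 417 to 678. Neither probe set had any overlap between the strains. That is description only, since the share of all probe sets without overlap over 12 arrays per strain was not counted.

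Averaged over the 4 exposures, the HeJ minus OuJ difference of Hbegf was 1.21 ± 0.09 on the brighter probe set (adjusted p = 8.94e-09) and 1.18 ± 0.07 on the dimmer (adjusted p = 6.8e-10). That average includes the 24 and 48 h groups, in which strain cannot be told apart from the code series. In that comparison 3 of the 16 members passed, all higher in HeJ, and 12.5% of all probe sets passed, 5.46% as higher. At 6, 24 and 48 h both Hbegf probe sets passed, with differences of 1.04 to 1.51, and no other member did, where 0.376%, 0.614% and 4.93% of all probe sets passed, 0.19%, 0.336% and 2.03% as higher. With only the 6 arrays compared in the fit, the brighter probe set missed the threshold at 6 h (difference 1.51, adjusted p = 0.061) and 24 h (1.09, 0.0555). Without the 4 suffix arrays, which leaves 1 HeJ array at 24 h, its 24 h difference was 0.85 (adjusted p = 0.217). The 2 probe sets of Hbegf followed each other over the 24 arrays, with a Pearson r of 0.92 that the strain difference contributes to.

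Control ratios of RNA integrity moved with strain as well. The 5′ to 3′ signal ratio of the Gapdh control probe sets was 0.636 ± 0.119 in HeJ arrays (range 0.497 to 0.944) and 0.869 ± 0.0759 in OuJ arrays (0.781 to 1.03; SD, n = 12 each). For the actin control it was 0.688 ± 0.0692 in HeJ arrays (0.571 to 0.832) and 0.866 ± 0.0529 in OuJ arrays (0.759 to 0.948). The part of these ratios in the Hbegf difference was not tested. In HeJ lungs the mean ratios were also higher at 24 h than in air, 0.753 against 0.558 for Gapdh and 0.765 against 0.649 for actin. The ranges overlapped. In OuJ lungs they were 0.851 against 0.843 and 0.853 against 0.869. The part of these ratios in the differences from air was not tested.

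No Hbegf comparison of ozone with air passed. The HeJ and OuJ groups at 6, 24 and 48 h all overlapped air of their own strain on both probe sets. Averaged over the strains, the 48 h minus air difference was −0.01 on the brighter probe set (95% confidence interval −0.27 to 0.25) and −0.21 on the dimmer (−0.42 to 0.01). At 24 h these differences were −0.00 (−0.26 to 0.26) and −0.17 (−0.39 to 0.05), and at 6 h 0.09 (−0.17 to 0.34) and −0.06 (−0.28 to 0.16). The dimmer probe set in OuJ lungs at 48 h had the lowest of these differences within a strain, with 506.3, 469.8 and 470.0 units at 48 h against 638, 493 and 678 in air. That difference was −0.30 ± 0.15 (adjusted p = 0.366), and the brighter probe set in the same mice gave 0.08 (adjusted p = 0.923).

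Transforming growth factor alpha (Tgfa), a high-affinity EGFR ligand of epithelial cells, did not pass in any of the 15 comparisons set out from the design. Its brightest probe set ranged from 176 to 376 units over the 24 arrays, and its difference from air averaged over the strains was −0.18 at 6 h, −0.03 at 24 h and −0.03 at 48 h. The second by brightness lay between 227 and 395 units at 24 h against 208 to 246 in air, ranges that overlap, with a difference of 0.37 ± 0.15 (adjusted p = 0.149). With each array left out in turn, it passed only without HeJ 24 h replicate 3, where the difference was 0.49 and the adjusted p was 0.0364. The third gave −0.08 at 24 h. The probe sets of Tgfa disagreed across arrays, with a Pearson r of −0.41 between the 2 brightest.

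Betacellulin (Btc), which binds EGFR and ERBB4, had a brighter probe set, above the median of all signals in 21 of 24 arrays, and 1 in the dim range. The brighter ranged from 214 to 376 units and differed from air by −0.03, −0.05 and 0.14 at 6, 24 and 48 h, averaged over the strains. The dim one ran from 1.2 to 53.5 units. Its HeJ arrays at 24 h all lay above HeJ air, with a difference of 0.84 and an adjusted p of 0.221, and in OuJ lungs the difference was −0.01.

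The receptor Egfr passed in no comparison. Its brightest probe set ran from 811 to 1394 units in HeJ lungs and from 863 to 1302 in OuJ lungs (12 arrays each). Averaged over the strains, its differences from air were −0.04 at 6 h, −0.04 at 24 h and −0.12 at 48 h. Over the 5 Egfr probe sets the averaged differences lay between −0.04 and 0.28 at 24 h and between −0.12 and 0.18 at 48 h, with adjusted p-values of at least 0.249. In HeJ lungs at 48 h the brightest probe set was lower than in air by an amount that missed the threshold, −0.33 ± 0.15 with an adjusted p of 0.259, and the other Egfr probe sets ran from −0.44 to 0.06 there. The Egfr probe sets followed each other weakly, with Pearson r of −0.17 to 0.65 over the 24 arrays.

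Erbb2, the partner receptor without a known ligand, ran from 394 to 657 units in HeJ lungs and from 364 to 595 in OuJ lungs. Its differences from air were −0.11, −0.06 and −0.06 at 6, 24 and 48 h, averaged over the strains. Its HeJ minus OuJ difference in air was 0.09 (95% confidence interval −0.26 to 0.44).

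Erbb3 did not pass in any comparison with air. On its brighter probe set the averaged difference from air was 0.11 at 6 h, 0.18 at 24 h and 0.06 at 48 h. Between strains, the 12 HeJ arrays ran from 1285 to 1842 units with a median of 1486, and the 12 OuJ arrays from 1057 to 1581 with a median of 1266. The ranges overlapped. The HeJ minus OuJ difference averaged over exposures was 0.26 ± 0.07 (adjusted p = 0.0113), and without the 4 suffix arrays it was 0.26 with an adjusted p of 0.0794. This averaged comparison was added after the data were seen. It includes the 24 and 48 h groups, in which strain cannot be told apart from the code series. Within 1 series, the difference in air alone was 0.21 ± 0.13 (adjusted p = 0.591). At 6 h, in the same series, neither Erbb3 probe set passed (adjusted p of at least 0.355). The other Erbb3 probe set, at 6.3 to 40.8 units, gave −0.05 averaged over exposures. The control ratios given for Hbegf moved with strain here too, and their part was not tested.

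Together, the 13 probe sets of Tgfa, Btc, Egfr, Erbb2 and Erbb3 gave 0 calls in each of the 15 comparisons in limma. The precision leaves room for moderate changes. For 24 h against air, averaged over the strains, their 95% confidence intervals lay within −0.67 to 0.93, and for 48 h within −0.50 to 0.71. The median difference of all 16 members was 0.04 at 24 h and −0.02 at 48 h, beside −0.01 and −0.02 over all probe sets.

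**Figure D2:**
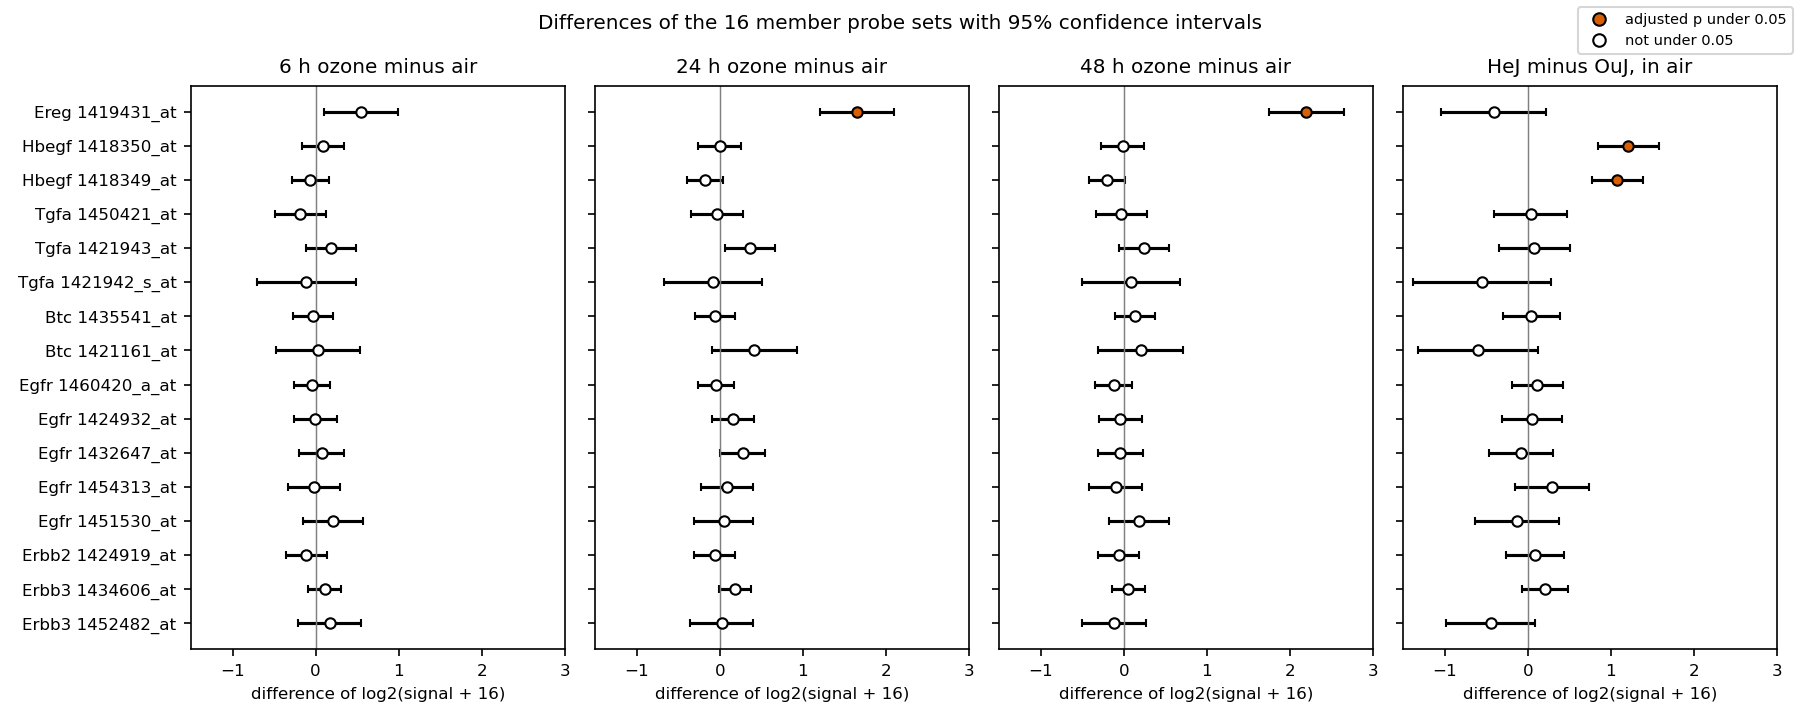
Differences of log2(signal + 16) for the 16 member probe sets, with 95% confidence intervals: 6, 24 and 48 h ozone minus air averaged over the strains, and HeJ minus OuJ in air. Filled points passed. Ereg alone is filled at 24 h (1.66) and 48 h (2.20), and the 2 Hbegf probe sets alone are filled between the strains (1.21 and 1.08).

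Other genes of the pathway were read from 5 lists of 89 genes, of which 72 had a probe set, each through its brightest. None of the 5 measured genes among other ErbB ligands and receptors passed in any comparison. Of the 72 genes, 1 passed at 6 h, 15 at 24 h (9 higher, 6 lower) and 18 at 48 h (7 higher, 11 lower), averaged over the strains, beside 0.296%, 7.09% and 9.73% of all probe sets (3.8% and 5.06% lower at 24 and 48 h). These shares cover all probe sets, dim ones included, and not the brightest of each gene, so they are not a like-for-like reference. The lists were also chosen with earlier results of these data known, so no excess is read from the counts. The median difference of the 72 genes was −0.01 at 24 h and −0.01 at 48 h, close to that of all probe sets.

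Of 15 measured feedback inhibitors of receptor and ERK signalling, 1 was higher at 6 h, 3 were higher at 24 h, and at 48 h 3 were higher and 1 lower. Errfi1, which binds EGFR and blocks its kinase, was the gene that passed at 6 h. Its signal at 6 h was 2834, 4031 and 6312 in HeJ lungs and 8141, 4369 and 5299 in OuJ lungs, against 2507, 3168 and 2892 in HeJ air lungs and 2524, 2661 and 2915 in OuJ air lungs. The averaged difference was 0.82 ± 0.15 at 6 h (adjusted p = 0.0235) and 0.75 ± 0.15 at 24 h (adjusted p = 0.0025), and 0.46 at 48 h missed the threshold (adjusted p = 0.0543). A second Errfi1 probe set gave averaged differences of 1.09, 1.06 and 0.67 and passed at all 3 times. At 6 h neither strain passed alone on the brightest (adjusted p = 0.61 in HeJ, 0.0689 in OuJ) or the second (0.287 and 0.12). On the brightest, the HeJ signals at 6 h overlapped HeJ air. At 24 h the brightest passed in OuJ lungs (0.0463) and missed in HeJ lungs (0.0738). The second passed in HeJ lungs (0.00705) and missed in OuJ lungs (0.0864). The 6 h and air arrays share 1 code series.

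Socs3, an inhibitor of cytokine receptor signalling that can also act on EGFR, averaged 1549 ± 216 units in HeJ lungs at 48 h, against 491 ± 123 in HeJ air lungs, and 971 ± 208 in OuJ lungs at 48 h, against 386 ± 104 in OuJ air lungs (SD, n = 3 each). Its differences from air, averaged over strains, were 1.58 at 24 h and 1.48 at 48 h. Dusp6, a phosphatase that inactivates ERK, was higher by 0.81 at 24 h and 0.68 at 48 h, and it passed in each strain at both times. Spred1, an inhibitor of RAS activation, was higher by 0.93 at 48 h, and Spry1, another inhibitor of the pathway, was lower by −0.41. The Spred1 signals at 48 h were 1093, 1026.7 and 1199.1 in HeJ lungs, against 284.1, 712 and 325 in HeJ air lungs. In OuJ lungs they were 528.5, 739.8 and 645.9, against 420.4, 509.6 and 445.6 in air. Only 2 feedback inhibitors, Socs3 and Dusp6, passed as higher in OuJ lungs at 48 h, so Spred1 did not pass there.

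Of 23 measured transcription targets, 9 passed at 24 h (5 higher, 4 lower) and 10 at 48 h (3 higher, 7 lower). Phlda1, whose transcript is induced by ERK, averaged 2404 ± 48 units in HeJ lungs at 48 h, against 1208 ± 75 in HeJ air lungs, and 2249.6 ± 21 in OuJ lungs, against 1135 ± 189 in OuJ air lungs. Its averaged difference from air was 0.99 ± 0.11 at 48 h (adjusted p = 7.29e-06). Of the immediate early genes, Fos differed by −1.32 at 24 h and −1.07 at 48 h and Egr1 by −1.11 and −0.96. Ier2 differed by −0.58 at 48 h, and all of these averaged differences passed. At 48 h the HeJ signals of these genes lay below every HeJ air signal, while the OuJ signals overlapped OuJ air. Egr1 in OuJ lungs also overlapped air at 24 h. Jun (0.51 at 24 h), Mcl1 (0.42 at 24 h and 0.36 at 48 h) and Plaur (0.32 and 0.33) were higher, and Elk3 (−0.60 and −0.64) was lower.

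Among 20 measured adaptors and kinases, 2 were lower at 24 h, and at 48 h 3 were lower and 1 higher. Gab1, a docking adaptor of EGFR, was lower by −0.26 at 24 h and −0.50 at 48 h, and Stat5a by −0.47 and −0.50. Stat5b was lower by −0.41 at 48 h, and Stat3 was higher by 0.38. Of 9 measured shedding genes, 1 passed: Timp3, an inhibitor of Adam17, was higher by 0.49 at 24 h. The endothelial, lymphoid and macrophage shifts described beside Ereg fall on the same arrays, and their part in these lists was not tested. None of the 72 genes passed in a test of a different response of the strains, or between the strains in air.

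**Figure D3:**
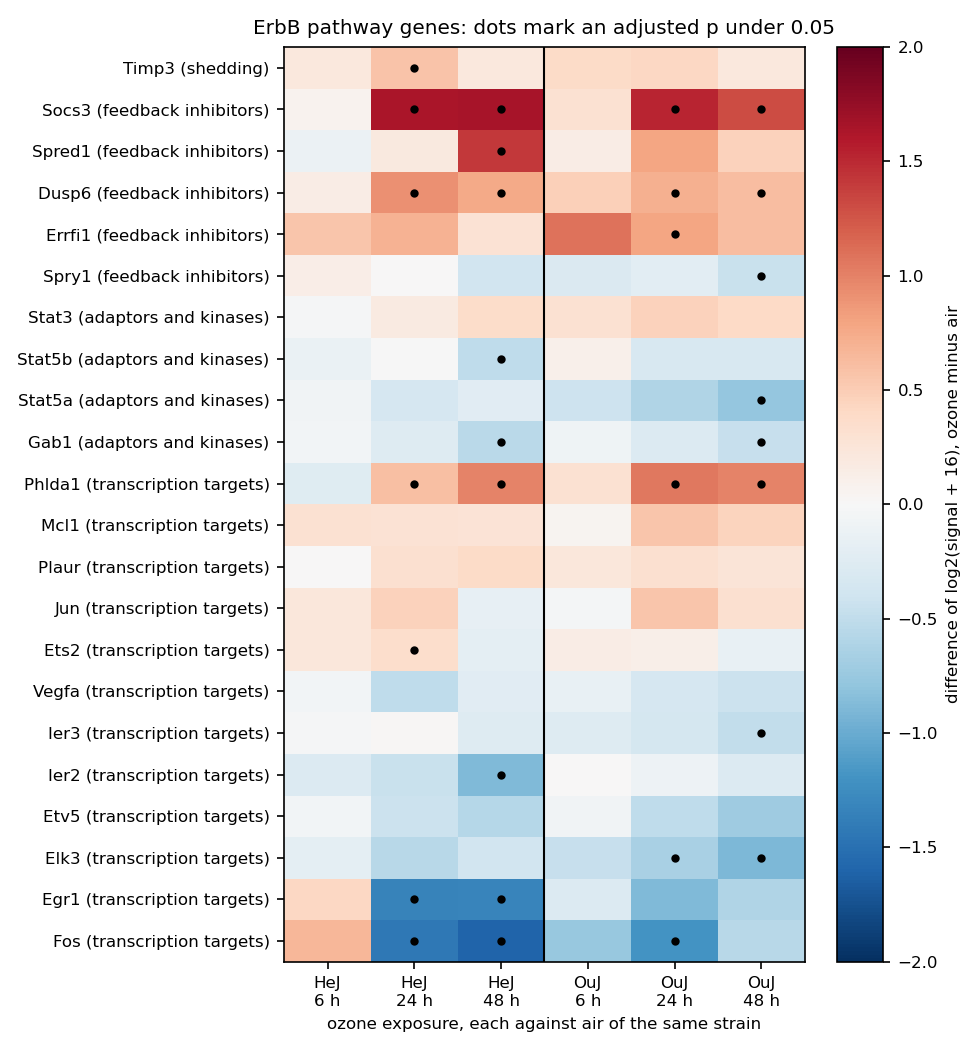
Difference of log2(signal + 16) from air of the same strain for the 22 pathway genes that passed in at least 1 comparison averaged over the strains, as colour from −2 (blue) to 2 (red), with columns for HeJ and then OuJ at 6, 24 and 48 h. Dots mark single-strain differences that passed. Socs3, Dusp6 and Phlda1 carry dots at 24 and 48 h in both strains, while Fos and Egr1 are blue at those times.

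The genes next to Ereg and Hbegf on their chromosomes were read in the RefSeq gene order of mouse assembly GRCm38.p6, after the data were seen. Ereg lies beside other EGF family ligands, between Epgn and Areg, with Btc as the next gene after Areg, and near a cluster of Cxcl chemokines. Of the 20 protein-coding genes nearest to it, 10 on each side, 13 had a probe set. At 48 h against air, averaged over the strains, 7 of these 13 passed, against 9.73% of all probe sets, and at 24 h 3 of 13 did. Here and around Hbegf, each neighbour was read through its brightest probe set, while the share covers all probe sets.

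The neutrophil-attracting chemokines Cxcl5 (2.70), Cxcl1 (1.74) and Cxcl2 (0.70) were higher at 48 h, as were Parm1 (0.64) and Uso1 (0.36). The platelet chemokines Ppbp (−0.62) and Pf4 (−0.32) were lower. The nearest measured ligands did not pass: the 48 h difference of Epgn was −0.19 (95% confidence interval −0.81 to 0.43), and that of Btc on its brightest probe set was 0.14 (−0.10 to 0.38).

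Around Hbegf, 13 of the 20 nearest genes had a probe set, and 1 of these passed between the strains in air. It was Cystm1, 2 genes away, which ranged from 4263 to 5969 units over the 12 HeJ arrays against 969 to 1862 over the 12 OuJ arrays. Its HeJ minus OuJ difference was 1.70 ± 0.14 in air and 1.74 ± 0.07 averaged over exposures (adjusted p = 1.24e-13). Averaged over exposures, Pura (−0.24, just inside the threshold) and Ndufa2 (0.16) also passed, 3 of 13 in all, against 12.5% of all probe sets. Pfdn1, which lies between Cystm1 and Hbegf, gave −0.07 (95% confidence interval −0.25 to 0.12). Cd14, the co-receptor of Tlr4 that lies 8 genes from Hbegf, gave −0.09 between strains (−0.23 to 0.05) and was higher by 0.48 at 48 h against air.

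**Figure D4:**
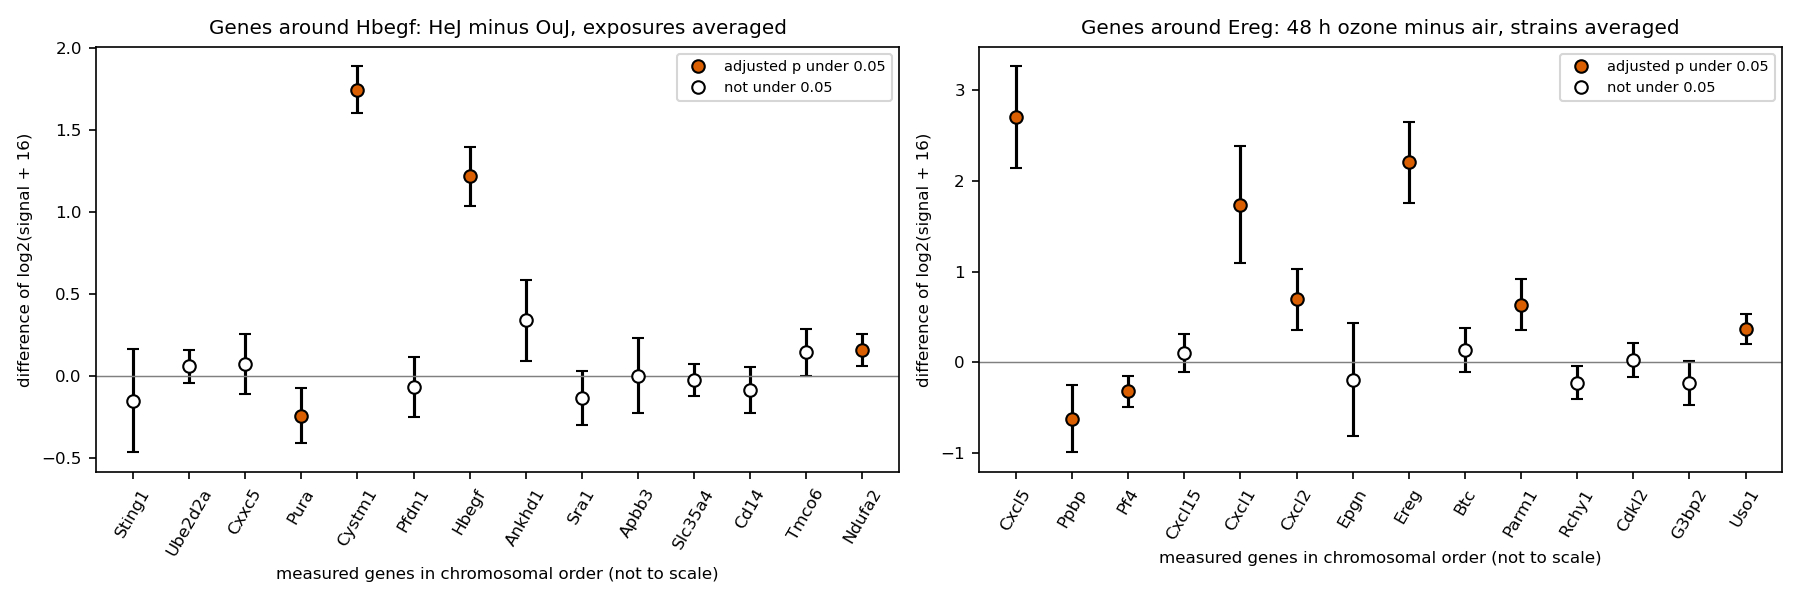
Differences of log2(signal + 16) with 95% confidence intervals for the measured genes among the 10 on each side of Hbegf (left, HeJ minus OuJ averaged over exposures) and of Ereg (right, 48 h ozone minus air averaged over the strains), in chromosomal order. Filled points passed. Cystm1 (1.74) and Hbegf (1.21) stand apart on the left, and Cxcl5 (2.70), Ereg (2.20) and Cxcl1 (1.74) on the right.

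Likeness of pattern was taken as Pearson r of log2(signal + 16) over the 24 arrays, which share 8 groups, so a gene with the same group differences gets a high r. Among 8007 other genes, those most like Hbegf were Nme7 (0.96), Ppp1r21 (0.93) and Xpr1 (0.92). For Ereg they were Mboat1 (0.89), the acute-phase protein gene Saa3 (0.89) and the metalloproteinase inhibitor Timp1 (0.88). The closest gene to Erbb3 was Reln (0.76), to Erbb2 Zcchc3 (0.75), to Tgfa Rasl12 (0.75), to Egfr Fam120b (0.73) and to Btc Csnk2a1 (0.71). Among the members' brightest probe sets the closest pair was Hbegf and Erbb3 (0.66), both higher in HeJ, and Ereg followed none of the others closely, with r of −0.25 to 0.23.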

How the data were processed

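Left lung lobe RNA of 24 mice was hybridized to 1 Affymetrix Mouse 430A 2.0 array each. The deposited values are linear signal intensity values of 22690 probe sets that the authors made with GCOS 1.4, as the submitters' processing notes say, and no source here states the algorithm settings. The mean of each array, with 2% trimmed from each tail, lay between 500.1 and 500.2. Groups came from the labels. Gene symbols came from the platform annotation (20380 probe sets with 1 symbol, 691 with several, 1555 with none). From these, log2(signal + 16) of the 22626 probe sets that are not controls was fitted with limma 3.58.1 in R 4.3.3 (lmFit and eBayes with an intensity trend, 1 mean per group), two-sided, with Benjamini-Hochberg adjustment within a comparison and a threshold of 0.05. The number of arrays limits the precision, and confidence intervals are at 95%. All member probe sets were named, with up to 3 pathway genes per direction and comparison by smallest p, plus Errfi1. Neighbouring genes, the genes most like Ereg and 4 of the 19 comparisons (HeJ against OuJ averaged and at each ozone time) were added after the data were seen. The members and gene lists were chosen with earlier results of these data known. Alternatives varied the pseudocount, filter, scaling, trend and arrays. Figures were drawn with matplotlib 3.10.9. Labels also name 72 h of ozone, which is not analysed here.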

Additional observations from a re-analysis of the deposited data

How the results depend on the processing

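The Ereg differences at 24 and 48 h, the Hbegf strain differences, the Erbb3 strain difference and the Tgfa difference at 24 h kept their direction under every alternative run, and the direction of the other members was not followed. The counts of called members for 24 or 48 h against air, in HeJ, in OuJ and averaged, were 0 in place of 1 with probe sets above the median in at least 3 arrays and with 1 probe set per gene among those, since Ereg never exceeded the median. With 1 probe set per gene HeJ against OuJ in air gave 1 in place of 2, by construction. OuJ at 24 h gave 0 with only the groups compared (Ereg adjusted p = 0.131), and HeJ at 24 h gave 0 without the 4 suffix arrays, which leaves 1 array in that group, assumed to vary like the other groups. Leaving out each array in turn, the OuJ 24 h count ranged from 0 to 1 and the averaged 24 h count from 1 to 2, and the other 13 counts kept their value. The replicate numbers did not pair the samples (deviations of same-numbered arrays correlated at −0.0689 to 0.112 over 84 pairs), and the replicate block left every member count as it was, with 1 for HeJ at 24 h.

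Over all probe sets, counts of calls moved by more than 1.5 times across alternatives and left-out arrays. The 6 h against air count was 0 in HeJ lungs (0 to 51), 8 in OuJ lungs (1 to 105) and 67 averaged (1 to 231). At 24 h it was 686 in HeJ (36 to 844), 510 in OuJ (239 to 685) and 1605 averaged (571 to 1825). At 48 h it was 1140 in HeJ (627 to 1341) and 747 in OuJ (251 to 859). For 48 h against 24 h it was 534 in HeJ (5 to 989) and 21 in OuJ (0 to 28). HeJ against OuJ gave 118 in air (18 to 215), 85 at 6 h (9 to 188), 139 at 24 h (17 to 217), 1115 at 48 h (324 to 1303) and 2829 averaged (1581 to 2963), and the tests of a different response gave at most 3. Ereg's low signals limit its fold change: across pseudocounts, scalings and arrays its averaged 48 h difference ran from 1.35 to 2.88.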

Other observations

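Several pathway genes differed between the strains when the exposures were averaged, a comparison added after the data were seen. Of the 72 measured pathway genes, each read through its brightest probe set, 14 passed, 7 higher and 7 lower in HeJ. Of all probe sets, dim ones included, 12.5% passed. The average includes the 24 and 48 h groups, in which strain cannot be told apart from the code series. The 5′ to 3′ control ratios moved with strain too, with means of 0.636 in HeJ and 0.869 in OuJ arrays for Gapdh and 0.688 in HeJ and 0.866 in OuJ arrays for actin, and their part was not tested. Ier3 (0.44), Adam15 (0.39), Ier2 (0.26), Spry1 (0.22), Ptpn1 (0.20) and Gab1 (0.17) were higher in HeJ lungs, as was Fos (0.56). Spry4 (−0.96), Etv5 (−0.46), Pik3r1 (−0.42), Rasa1 (−0.27), Vegfa (−0.25), Map2k1 (−0.23) and Adam9 (−0.23) were lower. At 48 h Spry4, an inhibitor of ERK signalling, had signals of 26, 20.5 and 15.8 in HeJ lungs against 130.6, 103 and 103 in OuJ lungs, a difference of −1.80 (adjusted p = 0.0158) that cannot be told apart from the code series. In air, within 1 series, the Spry4 signals overlapped (29.7, 74.9 and 24.8 in HeJ, 30.4, 93.5 and 26.1 in OuJ). At 6 h, in the same series, they did not overlap (28.2, 69.1 and 30.1 in HeJ, 124.4, 149.1 and 122.1 in OuJ), and the difference did not pass. No Spry4 signal reached the median of all signals, 218 units, so the pseudocount weighs heavily on its differences.

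At 6 h, within 1 code series, Fos was the only 1 of the 72 genes to pass between strains, with signals of 3782, 4124 and 7179 in HeJ lungs against 1332, 1424 and 983 in OuJ lungs. The difference was 1.96 ± 0.28 (adjusted p = 0.00134). In air the Fos signals of HeJ lungs (2326, 3733 and 3203) overlapped those of OuJ lungs (1376, 1816 and 3688), and the test of a different 6 h response gave 1.43 with an adjusted p of 0.948. The Gapdh 5′ to 3′ ratio at 6 h was 0.586 to 0.714 in HeJ arrays and 0.841 to 0.931 in OuJ arrays, and its part was not tested. The second Errfi1 probe set was lower in HeJ lungs by −0.68 averaged over exposures (adjusted p = 0.00101), and the brighter one gave −0.16 (adjusted p = 0.371), so the strain difference of Errfi1 rests on 1 probe set.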
